A study of Mus musculus with 8 samples.

Results

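The aquaporins and carbonic anhydrases of mouse skeletal muscle were compared between satellite cells, endothelial cells and muscle fibres. They were taken as 4 aquaporins (Aqp1, Aqp4, Aqp7 and Aqp11) and 6 carbonic anhydrases (Car2, Car3, Car4, Car8, Car13 and Car14), each found by its exact symbol in the deposited gene table, and make up 10 of the 36048 genes listed there. RNA sequencing covered 8 libraries. Satellite cells (SC, n = 2, numbered 1 and 3), the resident stem cells of muscle, and endothelial cells (EC, n = 3), which line the vessels, were flow-sorted out of hindlimb muscle at about 100000 cells for each library. Single muscle fibres (SMF, n = 3), the contractile cells, came from the extensor digitorum longus, and 100 intact fibres were picked by hand for a library after 3 h of rest. Strain, age and sex of the mice are not given in the labels, nor is the set of surface markers used for sorting, and no treatment or genetic change is named for any group.

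Aquaporins are membrane channels that let water follow osmotic gradients, and some of them, the aquaglyceroporins, also pass glycerol. Carbonic anhydrases interconvert carbon dioxide and bicarbonate with a proton, and their isoforms sit in the cytosol, in mitochondria or at the cell surface. In muscle, capillaries and fibres exchange water, carbon dioxide and acid across both endothelial and fibre membranes.

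Promoters of endothelial genes are shown because these genes gave the largest differences below; Car8 had no match. RefSeq promoter windows of GRCm38.p6 (the assembly named mm10), each 250 bases before to 50 after an annotated start, matched 5 of the 10 genes by symbol, with 6 windows in all. Capitals mark E-boxes (CANNTG, bound by basic helix-loop-helix factors) and the ETS core (CCGGAA or its reverse complement, bound by ETS factors). Aqp7 had a window for each of 2 annotated starts. The one shown held 3 E-boxes, while the other, at chr4:41048087-41048386 on the minus strand, held 2. The listed Aqp7 transcript with 8 exons begins at 41048139. This is close to the annotated start of the window not shown, and upstream of that of the window shown. The Aqp1 window lies at chr6:55336049-55336348 on the plus strand, the Aqp7 window shown at chr4:41047913-41048212 on the minus strand and the Car4 window at chr11:84957504-84957803 on the plus strand. The Aqp1 window ends before the single listed Aqp1 transcript, which begins at 55336432.
Aqp1: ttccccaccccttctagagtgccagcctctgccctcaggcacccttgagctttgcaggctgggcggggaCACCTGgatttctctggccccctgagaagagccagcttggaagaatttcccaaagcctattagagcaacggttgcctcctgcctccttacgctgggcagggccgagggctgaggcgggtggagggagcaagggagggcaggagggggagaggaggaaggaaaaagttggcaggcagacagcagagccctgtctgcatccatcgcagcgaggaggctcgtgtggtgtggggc
Aqp7: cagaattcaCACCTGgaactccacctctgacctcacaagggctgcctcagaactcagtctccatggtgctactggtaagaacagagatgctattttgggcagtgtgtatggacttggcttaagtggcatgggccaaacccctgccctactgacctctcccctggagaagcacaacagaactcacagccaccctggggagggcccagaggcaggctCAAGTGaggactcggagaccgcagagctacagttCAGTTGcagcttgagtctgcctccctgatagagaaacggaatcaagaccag
Car4: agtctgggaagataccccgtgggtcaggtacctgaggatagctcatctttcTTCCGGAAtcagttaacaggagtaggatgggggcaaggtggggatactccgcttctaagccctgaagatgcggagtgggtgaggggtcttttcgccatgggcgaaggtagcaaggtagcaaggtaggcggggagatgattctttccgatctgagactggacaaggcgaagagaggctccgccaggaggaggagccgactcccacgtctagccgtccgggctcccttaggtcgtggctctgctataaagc
The Aqp1 window held 1 E-box, while the Car4 window held no E-box but 2 overlapping ETS cores, 1 on each strand. E-boxes were present in windows of 4 of the 5 matched genes and ETS cores in 2, against 72.3% and 14.9% of all 32851 promoter windows. The MEF2 motif (CTA and TAG with 4 bases between, bound by factors of muscle and endothelium), searched on both strands, was absent from all 6 windows and present in 3.69% of all promoter windows. These matches describe letters in a window and not bound sites.

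Levels are FPKM as deposited by the authors, that is, fragments scaled by transcript length and by library size, so that levels of different genes can be set side by side per length. By marker genes the libraries held what their labels name. The summed FPKM of 8 satellite cell genes (Pax7 and others) was 576 to 660 in SC, 14.5 to 23.7 in EC and 6.97 to 8.49 in SMF. Most of this sum in EC came from Vcam1 with 7.85, 21.6 and 7.99 FPKM and Itga7 with 5.60, 1.84 and 6.63 FPKM. Vcam1 is also counted among the venous genes below. Pax7, Calcr and Fgfr4 were listed at 0 in every EC library. For 8 endothelial genes (Cdh5, Pecam1 and others) the sum was 17.6 to 23.9 in SC, 1153 to 1180 in EC and 3.82 to 4.31 in SMF. For 8 fast fibre genes (Myh4, Tnnt3 and others) it was 195 to 315 in SC, 11.9 to 24.8 in EC and 32731 to 36154 in SMF, whereas that of 8 slow fibre genes stayed at 1.20 to 3.54 in SMF. Libraries also held RNA of genes of other cells. The summed FPKM of 8 red blood cell genes was 65.1 to 113 in SC, 271 to 583 in EC and 11.6 to 52.7 in SMF. For 8 genes of fibro-adipogenic cells it was 454 to 459 in SC, 39.2 to 115 in EC and 39.3 to 105 in SMF. Most of this sum in SC came from a few genes, such as Gsn with 203 and 202 FPKM and Col3a1 with 108 and 113 FPKM. Pdgfra, of the same list, had 1.31 and 1.70 FPKM in SC. In bulk RNA, fewer cells of a type and less RNA per cell cannot be told apart. A single read pair on a transcript of 1 kb equals 0.320 and 0.360 FPKM in SC, 0.272 to 0.336 in EC and 0.172 to 0.190 in SMF, so values below 1 FPKM rest on few pairs. Read pair equivalents below are the deposited transcript coverage times transcript length over the bases of a read pair, summed over the listed transcripts of a gene. The method of isolation and the muscle differed together with the population, and no label ties the replicates to separate animals, so that the p-values here reflect a spread among libraries that could be technical. Per the labels, 1 unnamed sample did not reach the RNA integrity asked of the libraries.

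EC replicate 2 stood apart from the other EC libraries. All 8 pericyte and smooth muscle genes lay below both other EC libraries there, at 14.1 to 54.4% of their mean, and all 6 venous genes lay above both, at 105 to 429% of it. The furthest above was Vwf, the von Willebrand factor of venous endothelium. It reached 91.5 FPKM in EC replicate 2, against 22.6 and 20.0 FPKM in EC replicates 1 and 3. Of 8 capillary genes, 6 lay below both other libraries and 1 above both, at 39.4 to 117% of their mean. The furthest below was Rgcc, with 44.4 FPKM in EC replicate 2, against 114 and 112 FPKM in EC replicates 1 and 3. Of 8 arterial genes, 5 lay above both and 2 below both, at 76.1 to 283% of their mean. The furthest above was Gja5, a connexin gene, with 14.7 FPKM in EC replicate 2, against 5.44 and 4.94 FPKM in EC replicates 1 and 3. Of the 8 endothelial marker genes, 4 lay below both and 4 above both, at 55.5 to 165% of their mean. They ran from Kdr, also counted among the capillary genes, to Pecam1, and Cldn5 stood at 68.3%. Summed levels were also lower in EC replicate 2 for red blood cell genes, with 271 FPKM against 577 and 583 FPKM in EC replicates 1 and 3. For leukocyte genes the sums were 13.4 FPKM against 91.6 and 123 FPKM, and for genes of fibro-adipogenic cells 39.2 FPKM against 105 and 115 FPKM. Differences of the 9 tested genes that involve EC are therefore given with and without this library.

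**Figure D1:**
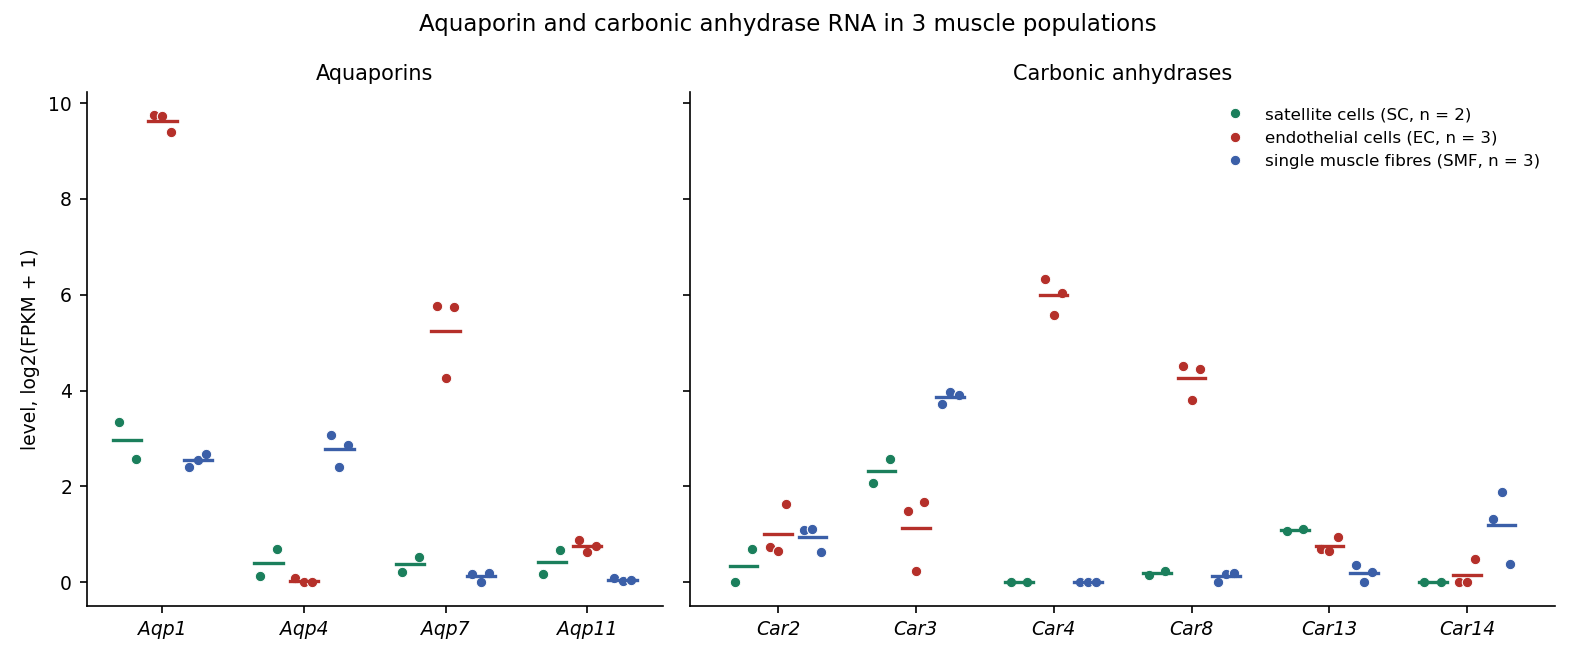
Levels of the 4 aquaporins (left) and 6 carbonic anhydrases (right) in each library, as log2(FPKM + 1) on the vertical axis, for SC (green), EC (red) and SMF (blue). Each point is a library and each bar the mean of its group. Aqp1, Aqp7, Car4 and Car8 were highest in all 3 EC libraries, and Aqp4 and Car3 in all 3 SMF libraries.

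Differences between populations were tested with limma on log2(FPKM + 1) over 16700 genes with at least 1 FPKM in at least 2 libraries. Of the 10 genes, 9 entered the test, and Aqp11 did not reach this level. Between SC and EC, 0 of the 10 genes were higher in SC and 4 were lower (Aqp1, Aqp7, Car4 and Car8), against 21.2% of all tested genes higher and 16.4% lower. At an unadjusted p under 0.05 there was 1 gene higher in SC, Car3, and no other tool was run. Between SC and SMF, 1 of the 10 was higher in SC (Car13) and 3 were lower (Aqp4, Car3 and Car14), against 56.5% and 8.57% of all tested genes. Between EC and SMF, 5 were higher in EC (Aqp1, Aqp7, Car4, Car8 and Car13) and 3 were lower (Aqp4, Car3 and Car14), against 55.5% and 10.8%. Since a gene high in a single population passes the level filter through that population, these counts describe the genes and are not evidence about the families. The comparisons share libraries and are not independent of each other.

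The large shares of all genes higher than in SMF move with the scaling. The median log2 difference of all tested genes was 0.11 for SC minus EC, 0.93 for SC minus SMF and 0.85 for EC minus SMF. Under 3 other scalings it ran from -0.14 to 0.29, from 0.39 to 0.75 and from 0.46 to 0.55. Among all calls, 56.3%, 86.8% and 83.7% were higher in the first-named population of each comparison as deposited, against 37.4 to 67.4%, 66.3 to 80.8% and 67.4 to 71.2% under the other scalings.

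**Figure D2:**
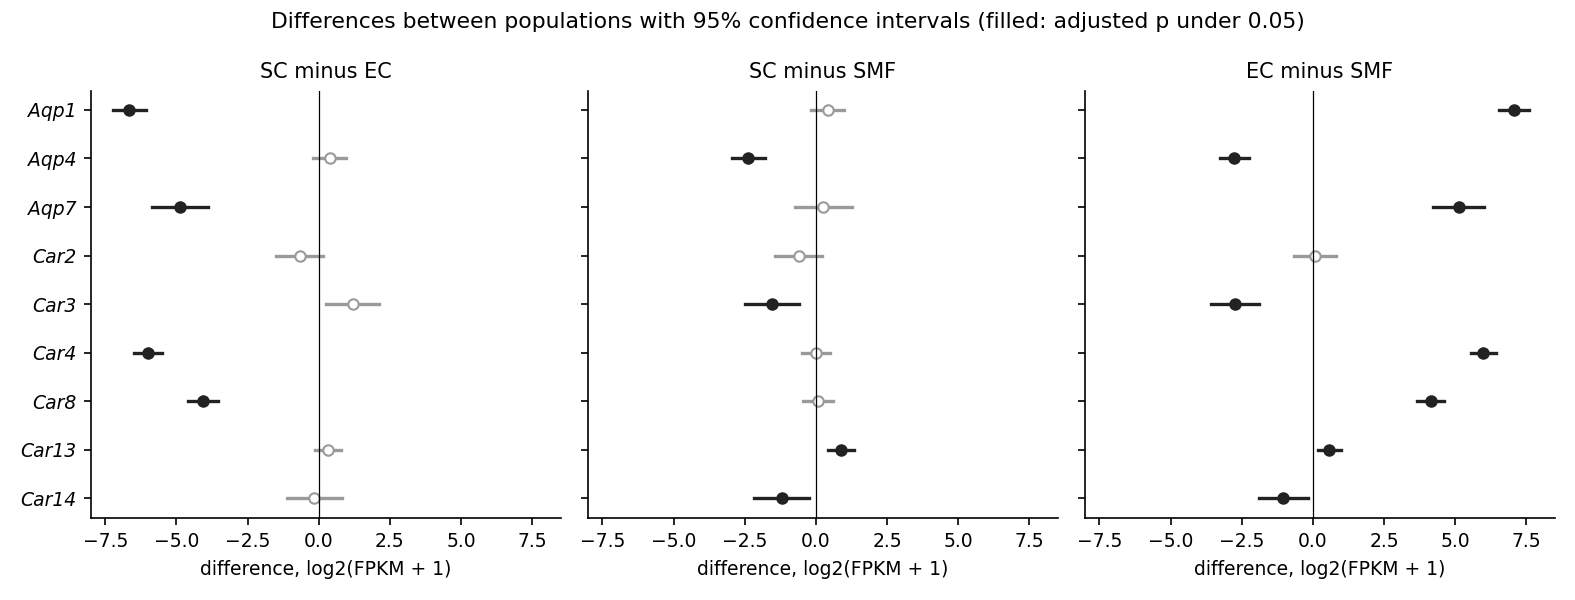
Differences of log2(FPKM + 1) between populations for the 9 tested genes, SC minus EC (left), SC minus SMF (middle) and EC minus SMF (right), with 95% confidence intervals from limma; filled points have an adjusted p under 0.05. Aqp1, Aqp7, Car4 and Car8 lie between -6.66 and -4.06 for SC minus EC and between 4.14 and 7.08 for EC minus SMF.

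Aqp1, the constitutive water channel of capillary endothelium and red blood cells, was the most abundant of the 10 genes in EC. Its single listed transcript lies at chr6:55336432-55348555 on the plus strand (mm10, as for all transcript positions here). It had 9.22 and 4.99 FPKM in SC replicates 1 and 3, 856, 853 and 674 FPKM in EC replicates 1 to 3, and 4.33, 4.84 and 5.43 FPKM in SMF replicates 1 to 3. The EC libraries were separate from all others, and SC and SMF ranges overlapped. The EC mean of 794 ± 104 FPKM (SD, n = 3) ranked 77th among all listed genes and rested on 5272 to 8240 read pair equivalents a library. For SC minus EC the log2 difference was -6.66 (SE 0.25, adjusted p = 1.59e-06), and for EC minus SMF it was 7.08 (SE 0.22, adjusted p = 2.05e-07). Without EC replicate 2 these differences were -6.60 and 7.02. SC minus SMF was 0.42 (95% interval -0.16 to 1.00, adjusted p = 0.176), and its sign turned to -0.51 under median-of-ratios scaling and -0.48 when the 50 most abundant genes were left out of the scaling. Without SC replicate 3 it was 0.81 (adjusted p = 0.0266). The low Aqp1 of SC stood beside endothelial markers at 17.6 to 23.9 FPKM and red blood cell markers at 65.1 to 113 FPKM in SC, and that of SMF beside 3.82 to 4.31 and 11.6 to 52.7 FPKM in SMF; the part of such RNA was not tested.

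Aqp7 encodes an aquaglyceroporin, known from adipocytes and capillary endothelium, where it carries glycerol as well as water. Its listed transcripts lie at chr4:41033074-41048139 on the minus strand. That with 8 exons (ENSMUST00000030136) took 100, 93.3 and 97.2% of the listed Aqp7 FPKM in EC replicates 1 to 3. Aqp7 had 0.169 and 0.452 FPKM in SC, 53.0, 18.2 and 52.5 FPKM in EC, and 0.125, 0 and 0.150 FPKM in SMF. Every EC library was above every other library, and EC replicate 2 stood at 34.5% of the mean of the other EC libraries. The log2 difference was -4.87 for SC minus EC (SE 0.43, adjusted p = 9.34e-05) and 5.13 for EC minus SMF (SE 0.38, adjusted p = 1.21e-05). Without EC replicate 2 they were -5.37 and 5.62. SC minus SMF was 0.26 (adjusted p = 0.614), with at most 3.5 read pair equivalents in any library of those groups. Of 6 adipocyte genes, 5 were listed, and their sum was 0.402 to 1.92 FPKM in SC, 0 to 1.66 FPKM in EC and 0 in all SMF libraries; all were listed at 0 in EC replicate 2.

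Aqp4, the water channel of the fast fibre membrane and of astrocyte endfeet, showed the opposite distribution. Its single listed transcript is at chr18:15389394-15403684 on the minus strand. It had 0.0937 and 0.620 FPKM in SC, 0.0613, 0 and 0 FPKM in EC, and 7.47, 4.34 and 6.30 FPKM in SMF. All SMF libraries were above all others, and the values rested on at most 8.8 read pair equivalents in an SC or EC library, against 126 to 220 in an SMF library. The log2 difference was -2.38 for SC minus SMF (SE 0.25, adjusted p = 9.69e-05) and -2.76 for EC minus SMF (SE 0.22, adjusted p = 1.77e-05). SC minus EC was 0.38 (adjusted p = 0.269). Without EC replicate 2, EC minus SMF was -2.75 and SC minus EC 0.37. The low Aqp4 values of the sorted cells stood beside fast fibre markers at 195 to 315 FPKM in SC and 11.9 to 24.8 FPKM in EC, and their part was not tested.

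Aqp11, an unorthodox aquaporin of intracellular membranes, was low everywhere. The listed transcripts lie at chr7:97724006-97738289 on the minus strand. It had 0.134 and 0.601 FPKM in SC, 0.839, 0.553 and 0.680 FPKM in EC, and 0.0718, 0.0186 and 0.0301 FPKM in SMF. Every SMF library was below every SC and EC library, while SC and EC overlapped. When no level filter was used, EC minus SMF was 0.70 (adjusted p = 0.0167), SC minus EC was -0.32 (adjusted p = 0.29) and SC minus SMF was 0.37 (adjusted p = 0.177). Aqp11 did enter the test in the authors' TPM table, where EC minus SMF was 0.97 (adjusted p = 0.00393). There SC minus EC was -0.42 (adjusted p = 0.235) and SC minus SMF was 0.55 (adjusted p = 0.0817).

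Taken as a family, the 10 aquaporins listed in the table summed to 8.74 to 9.82 FPKM in SC, 728 to 910 FPKM in EC and 9.20 to 12.0 FPKM in SMF. Aqp1 made up 57.1 and 93.9% of the sum in SC and 92.5 to 97.8% in EC. In SMF, Aqp4 led in replicates 1 and 3 with 62.3 and 52.9%, and Aqp1 led in replicate 2 with 52.7%. Within SMF, Aqp1 and Aqp4 overlapped and did not separate beyond their spread. Mip, Aqp3, Aqp5, Aqp6, Aqp9 and Aqp12, the 6 further aquaporins listed, did not reach the level filter, and all 6 were listed at 0 in every SMF library.

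Car4 is the carbonic anhydrase anchored to the outer face of the capillary endothelial membrane. Its listed transcripts lie at chr11:84957786-84966044 on the plus strand. That with 8 exons begins at 84957788, inside the promoter window shown above, whereas some others begin after the end of the window. It was listed at 0 in both SC and all 3 SMF libraries, and had 79.5, 47.1 and 64.9 FPKM in EC. It rested on 311 to 453 read pair equivalents in each EC library and 0 in the others, and no fold is given against groups at 0. The difference of log2(FPKM + 1), which depends on the added 1, was -5.99 for SC minus EC (SE 0.21, adjusted p = 1.38e-06) and 5.99 for EC minus SMF (SE 0.19, adjusted p = 2.1e-07). Without EC replicate 2, which stood at 65.2% of the mean of the other EC libraries, they were -6.19 and 6.19. The transcript with 8 exons and 1256 bases (ENSMUST00000103194) took 91.5, 88.7 and 80.2% of the listed Car4 FPKM in EC replicates 1 to 3.

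Car8 belongs to the family by sequence but lacks catalytic activity, and its protein is known to bind the inositol trisphosphate receptor. Its listed transcript lies at chr4:8143362-8239041 on the minus strand. It had 0.113 and 0.185 FPKM in SC, 21.9, 13.0 and 20.8 FPKM in EC, and 0, 0.133 and 0.138 FPKM in SMF. The EC libraries were again separate from all others, and EC replicate 2 had 60.9% of the mean of the other EC libraries. The log2 difference was -4.06 for SC minus EC (SE 0.23, adjusted p = 9.01e-06) and 4.14 for EC minus SMF (SE 0.20, adjusted p = 1.36e-06), and -4.28 and 4.36 without EC replicate 2. Gm11799 on the same strand and Gm25355 on the opposite strand lie within Car8. Gm11799 had 0 and 0.735 FPKM in SC, 2.96, 2.16 and 2.77 FPKM in EC, and 0 in SMF, and Gm25355 had 0 in SC, 2.49, 1.83 and 0.864 FPKM in EC, and 0 in SMF. How reads were assigned between overlapping genes is not given in the sources used here.

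Thus in EC replicate 2 Aqp7, Car8 and Car4 were each the lowest of the 3 EC libraries, while Aqp1 with 853 FPKM lay between the other values. The vessel, endothelial marker, pericyte, red blood cell, leukocyte and fibro-adipogenic genes that moved with this library are given above, and their part in these levels was not tested.

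**Figure D3:**
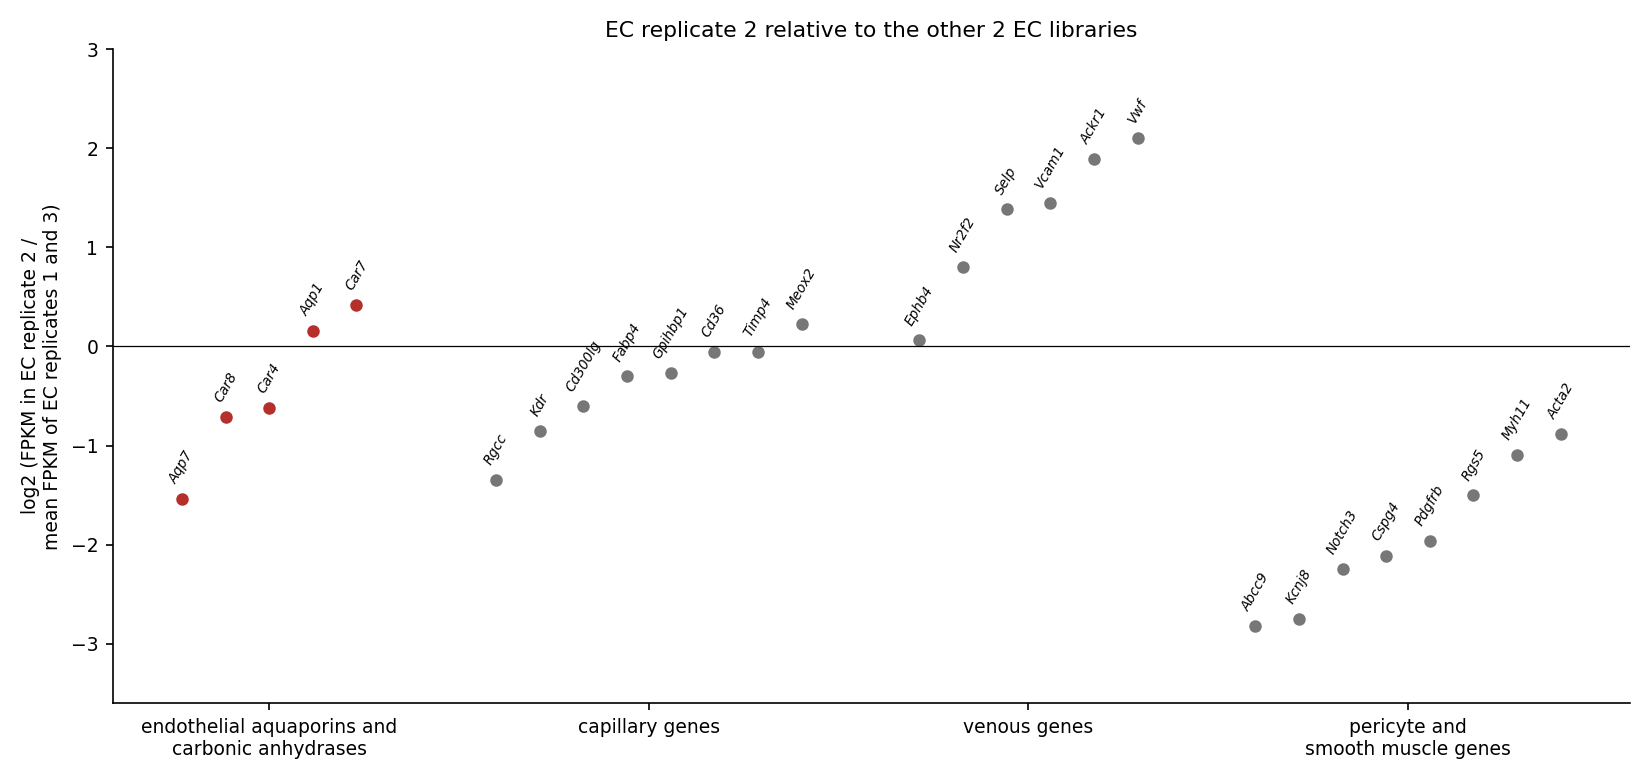
Level in EC replicate 2 over the mean of EC replicates 1 and 3, on a log2 scale, for endothelial aquaporins and carbonic anhydrases (red) and for capillary, venous and pericyte or smooth muscle genes (grey). Aqp7 stood at 34.5% and Aqp1 at 111% of that mean, while all 6 venous genes lay above it and all 8 pericyte and smooth muscle genes below it.

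Car3, a cytosolic carbonic anhydrase of low activity that is abundant in slow fibres, fat and liver, was the leading carbonic anhydrase of the fibres. Its listed transcripts lie at chr3:14863512-14872523 on the plus strand. It had 3.22 and 4.91 FPKM in SC, 1.79, 0.177 and 2.18 FPKM in EC, and 12.2, 14.6 and 14.0 FPKM in SMF. The 3 groups did not overlap, with SMF highest and EC lowest. SC minus SMF was -1.55 on the log2 scale (SE 0.40, adjusted p = 0.0107) and EC minus SMF was -2.74 (SE 0.36, adjusted p = 0.000294). The SC minus SMF call was lost without SC replicate 1, where the difference was -1.30 (adjusted p = 0.0693), and with a pseudocount of 0.1 (adjusted p = 0.0989). SC minus EC was 1.19 (95% interval 0.25 to 2.13, adjusted p = 0.0517), just short of the threshold. Without EC replicate 2, whose Car3 rested on 1.9 read pair equivalents, SC minus EC was 0.75 and passed (adjusted p = 0.0280), and EC minus SMF was -2.29. It also passed without EC replicate 3, at 1.46 (adjusted p = 0.0304). Fast fibre markers were also higher in SC, with 195 and 315 FPKM in SC replicates 1 and 3 against 11.9 to 24.8 FPKM in EC, and both Car3 and that sum were higher in SC replicate 3 than in SC replicate 1; their part was not tested. Slow fibre markers, which Car3 is known to accompany, summed to 48.8 to 59.3 FPKM in SC, 22.3 to 25.8 FPKM in EC and 1.20 to 3.54 FPKM in SMF. Atp2a2, the calcium pump gene of slow fibres and of many other cells, made up most of the sums of the sorted cells, with 35.8 and 35.1 FPKM in SC, 22.1 to 23.4 FPKM in EC and 1.06 to 1.32 FPKM in SMF. Myl2 and Myl3, myosin light chain genes, were listed at 0 in all EC and SMF libraries. In SC replicates 1 and 3, Myl2 had 2.70 and 7.11 FPKM and Myl3 had 0.257 and 1.43 FPKM. Tnnt1, another slow fibre gene, had 7.89 and 6.74 FPKM in SC, at most 0.819 FPKM in EC and at most 1.11 FPKM in SMF. The part of slow fibre RNA in the Car3 of SC was not tested.

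Car14 is a membrane-spanning isoform with its active site outside the cell, known from the fibre membrane. Its listed transcripts lie at chr3:95897768-95904691 on the minus strand. It was listed at 0 in both SC libraries, had 0, 0 and 0.394 FPKM in EC, and 1.49, 2.71 and 0.298 FPKM in SMF. SMF replicate 3 lay below EC replicate 3, so those groups overlapped, though both values stood beside 0 read pair equivalents in the listed transcripts. SC minus SMF was -1.20 (SE 0.41, adjusted p = 0.0346) and EC minus SMF was -1.04 (SE 0.37, adjusted p = 0.0382), while SC minus EC was -0.16 (adjusted p = 0.800), or -0.24 without EC replicate 2. Both calls were lost when no level filter was used (adjusted p = 0.0559 and 0.0695), when only the 2 groups compared were fitted (0.0818 and 0.0646), and without either SC library (0.109 and 0.116 for SC minus SMF, 0.0543 and 0.0530 for EC minus SMF). That of EC minus SMF was also lost without EC replicate 1 (adjusted p = 0.0915) or EC replicate 2, where the difference was -0.96 (adjusted p = 0.0904), and without SMF replicate 1 or 2 Car14 did not enter the test. The end of Car14 overlaps Aph1a on the opposite strand, which had 2.43 and 3.51 FPKM in SC, 3.25 to 4.78 FPKM in EC and 0.815 to 1.02 FPKM in SMF.

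Car2, the fast cytosolic isoform, was low in all populations and was called in no comparison as deposited. Its listed transcripts lie at chr3:14886273-14900770 on the plus strand, next to Car3. It had 0 and 0.610 FPKM in SC, 0.674, 0.580 and 2.11 FPKM in EC, and 1.12, 1.17 and 0.542 FPKM in SMF, and the 3 groups overlapped. The log2 differences were -0.67 for SC minus EC (adjusted p = 0.185), -0.60 for SC minus SMF (adjusted p = 0.177) and 0.07 for EC minus SMF (adjusted p = 0.858). Leaving out EC replicate 2 gave -0.85 for SC minus EC and 0.25 for EC minus SMF. EC minus SMF became -0.37 under median-of-ratios scaling, -0.27 under upper-quartile scaling and -0.29 without the 50 most abundant genes. SC minus SMF passed the threshold at -1.01 (adjusted p = 0.0337) under the first of these scalings and at -0.95 (adjusted p = 0.0482) under the last of them.

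Car13, another cytosolic isoform, sits at chr3:14641727-14663002 on the plus strand in the same cluster as Car3 and Car2. It had 1.09 and 1.15 FPKM in SC, 0.616, 0.579 and 0.934 FPKM in EC, and 0.293, 0 and 0.164 FPKM in SMF. The groups did not overlap, with SC highest, but no library had more than 7.9 read pair equivalents. SC minus SMF was 0.89 (SE 0.19, adjusted p = 0.00447), EC minus SMF was 0.57 (SE 0.17, adjusted p = 0.0198) and SC minus EC was 0.32 (adjusted p = 0.245). Leaving out EC replicate 2 gave 0.63 for EC minus SMF and 0.26 for SC minus EC. The differences from SMF, 0.89 and 0.57, were smaller than the median of all genes, 0.93 and 0.85, and Car13 fell below the level filter under all 3 other scalings and without either SC library. EC minus SMF lost its call without SMF replicate 2 (adjusted p = 0.0803) and without SMF replicate 3 (adjusted p = 0.0529).

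The 14 carbonic anhydrases listed summed to 9.52 to 11.8 FPKM in SC, 67.3 to 110.0 FPKM in EC and 15.3 to 19.5 FPKM in SMF. Car3 made up 33.8 and 41.6% of the sum in SC replicates 1 and 3. In SC replicate 1 it lay below Car12, with 3.22 against 4.14 FPKM. Car4 led in EC with 67.2 to 72.2% and Car3 in SMF with 74.8 to 86.6%. Of 8 further carbonic anhydrases listed, 3 entered the test. Car7, a cytosolic isoform, was listed at 0 in all SC and SMF libraries and had 2.95, 4.34 and 3.52 FPKM in EC. Its difference was -2.19 for SC minus EC (adjusted p = 6.2e-05) and 2.19 for EC minus SMF (adjusted p = 1.04e-05), and EC replicate 2 was its highest library. Car12, a membrane-spanning isoform, had 4.14 and 2.02 FPKM in SC, at most 0.0836 FPKM in EC and 0 in all SMF libraries. It was higher in SC than in EC by 1.94 (adjusted p = 0.000623) and than in SMF by 1.98 (adjusted p = 0.00024). Car5b, a mitochondrial isoform, had 0.379 and 1.66 FPKM in SC, 1.92, 1.57 and 1.03 FPKM in EC, and 0, 0 and 0.0297 FPKM in SMF. It was higher than in SMF by 0.92 in SC (adjusted p = 0.0253) and by 1.30 in EC (adjusted p = 0.00299), and the first call was lost under median-of-ratios scaling (adjusted p = 0.0525), with the 50 most abundant genes left out (adjusted p = 0.0624), without SC replicate 3 (adjusted p = 0.208) and without any of SMF replicates 1, 2 and 3 (adjusted p = 0.0611, 0.0613 and 0.0565).

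The authors' deposited table gives a specificity score of 46435 loci for each population, whose formula is not given in the sources used here; the ranks were taken here by ordering that score. Ordered by the EC score of the authors' deposited table, Aqp1 was 8th, Car4 12th, Aqp7 78th and Car8 198th. Ordered by its SMF score, the authors' deposited table had Aqp4 359th, Car3 584th and Car14 630th.

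For genes with the most similar profile, Pearson correlations of log2(FPKM + 1) over the 8 libraries were taken across 2393 genes with a mean of at least 10 FPKM. They mostly reflect the difference between the 3 populations, and carry no p. Among the closest to Aqp1 was Adgrf5 (r = 0.999), and 99 genes reached 0.99. Aqp7 was closest to Btnl9 (r = 0.999) and Etl4 (r = 0.998), Car4 to Rbp7 (r = 1.000) and Cmtm8 (r = 0.999), and Car8 to Bst2 and Pdgfb (r = 0.999 each). Btnl9 had 39.8, 14.4 and 48.4 FPKM in EC, with its lowest value in EC replicate 2 as for Aqp7. Aqp4 was closest to Phyh (r = 0.996) and Abra (r = 0.994), Car3 to Cisd1 (r = 0.988) and Glo1 (r = 0.987), and Car13 to Srsf6 (r = 0.989) and Nop14 (r = 0.985). No gene exceeded 0.867 with Car2 or 0.911 with Car14.

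Genes that work beside these proteins were counted by list. Each count stands against the same shares of all tested genes as above, 21.2% higher and 16.4% lower in SC than in EC, 56.5% and 8.57% in SC than in SMF, and 55.5% and 10.8% in EC than in SMF. Genes of the dystrophin complex, which holds Aqp4 at the fibre membrane, were all tested. Of the 8 genes, 4 were higher and 0 lower in SC than in EC (0 lower also at an unadjusted p under 0.05), 3 higher and 4 lower in SC than in SMF, and 2 higher and 5 lower in EC than in SMF, with a median log2 difference of 0.78, -0.46 and -1.90 against 0.11, 0.93 and 0.85 for all genes. Dmd, the dystrophin gene, had 11.6 and 13.3 FPKM in SC, 1.84 to 2.13 FPKM in EC and 13.6 to 15.7 FPKM in SMF. Its SC minus SMF difference was -0.23 and not called as deposited (adjusted p = 0.182). It was called under median-of-ratios scaling at -1.25 (adjusted p = 0.000181) and under upper-quartile scaling at -0.67 (adjusted p = 0.0283). With the 50 most abundant genes left out of the scaling it was called at -1.21 (adjusted p = 0.000862). Under each of these 3 scalings, 5 genes of the list were lower in SC than in SMF. Dag1, the dystroglycan gene, had 210 and 180 FPKM in SC, 20.3 to 24.4 FPKM in EC and 12.9 to 20.8 FPKM in SMF. Sntb2, a syntrophin gene, was higher than in SMF by 3.02 in SC (adjusted p = 7.27e-06) and by 3.17 in EC (adjusted p = 1.5e-06), and Sgcb, a sarcoglycan gene, was lower by -0.68 in SC and -1.94 in EC. In the TPM table the SC minus SMF difference of Sgcb was -0.26 and not called (adjusted p = 0.473).

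Bicarbonate transporters move the product of carbonic anhydrases across membranes, and 4 of 12 listed for this purpose were tested. In SC 2 were higher and 0 lower than in EC (0 lower also at an unadjusted p under 0.05), and 2 were higher and 1 lower than in SMF, and in EC 3 were higher and 1 lower than in SMF. Beside the 56.5% of all genes higher in SC than in SMF and the 55.5% higher in EC, nothing particular to the list is read from counts among 4 genes. The 2 calls between SC and EC, Slc4a7 and Slc4a4, fell to 1 under median-of-ratios scaling (Slc4a7, adjusted p = 0.0898) and to 0 with the 50 most abundant genes left out of the scaling (adjusted p = 0.218 and 0.0561). That of Slc4a7 was also lost without SC replicate 1 or 3 (0.0555 and 0.111) and without EC replicate 1 or 3 (0.0545 and 0.0561), and that of Slc4a4 without SC replicate 1 (0.0704). Slc4a4, a sodium bicarbonate cotransporter, had 0.978 and 0.859 FPKM in SC, 0.131 to 0.194 FPKM in EC and 1.57 to 2.27 FPKM in SMF, and was lower than in SMF by -0.59 in SC (adjusted p = 0.0151) and -1.32 in EC (adjusted p = 0.000124). The SC call of Slc4a4 was lost without SC replicate 3 (adjusted p = 0.0758), without SMF replicate 3 (adjusted p = 0.0641) and with a replicate block (adjusted p = 0.0513). Slc4a7, another such cotransporter, had 6.84 and 8.08 FPKM in SC, 2.95, 5.34 and 3.28 FPKM in EC, and 0.496 to 0.724 FPKM in SMF. Slc4a2, an anion exchanger, had 3.72 and 3.45 FPKM in SC, 1.40 to 2.99 FPKM in EC and 0.325 to 0.423 FPKM in SMF. Slc4a8 was higher in EC than in SMF by 0.92 (adjusted p = 0.0126).

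Proton and lactate transporters, 10 of 14 tested, had 5 higher and 1 lower in SC than in EC, 5 higher and 3 lower in SC than in SMF, and 1 higher and 3 lower in EC than in SMF. The 5 of 10 higher in SC than in SMF lay near the 56.5% of all genes. Under median-of-ratios scaling the counts became 3 higher and 1 lower, 4 higher and 4 lower, and 1 higher and 5 lower. Slc16a3, the lactate exporter of glycolytic cells, had 2.62 and 2.02 FPKM in SC, 0.695 to 1.50 FPKM in EC and 11.1 to 12.8 FPKM in SMF. Slc16a3 was higher in SC than in EC by 0.63 (adjusted p = 0.0383), a call kept in only 5 of 20 alternatives. Its partner Bsg had 44.4 and 37.5 FPKM in SC, 90.4 to 149 FPKM in EC and 179 to 216 FPKM in SMF. Slc16a1, a lactate transporter that also imports, differed between SC and SMF by 0.72 (adjusted p = 0.0464), but this call was kept in only 6 of 20 alternatives. The difference was 0.31 under upper-quartile scaling (adjusted p = 0.388), and turned to -0.24 and -0.21 under median-of-ratios scaling and with the 50 most abundant genes left out of the scaling. The Slc16a1 call was also lost with no level filter (adjusted p = 0.0764), without SC replicate 1 or 3 (0.223 and 0.0565), without EC replicate 3 (0.0621) and without SMF replicate 2 or 3 (0.130 and 0.0877). For EC minus SMF, Slc16a1 was at -0.62 and not called as deposited (adjusted p = 0.0513). It was called under median-of-ratios scaling at -1.33 (adjusted p = 0.00154) and under upper-quartile scaling at -1.21 (adjusted p = 0.00413). With the 50 most abundant genes left out of the scaling it was called at -1.20 (adjusted p = 0.00114).

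Genes of glycerol release and use, which bear on the glycerol that Aqp7 carries, had 7 of 9 tested. In SC 1 was higher and 5 were lower than in EC, and 3 were higher and 3 lower than in SMF, and in EC 5 were higher and 2 lower than in SMF (3 higher under each of the other scalings). For all genes the shares lower were 16.4% in SC than in EC and 8.57% in SC than in SMF, and 55.5% were higher in EC than in SMF. Lpl, the lipase that acts at the capillary wall, had 12.8 and 10.9 FPKM in SC, 65.5, 56.1 and 48.4 FPKM in EC, and 2.90 to 4.58 FPKM in SMF. It was higher in SC than in SMF by 1.40 (adjusted p = 0.000654). This call was lost under median-of-ratios scaling, at 0.46 (adjusted p = 0.113). It was also lost with the 50 most abundant genes left out of the scaling, at 0.49 (adjusted p = 0.0843). Under both of these scalings, 2 genes of the list were higher in SC than in SMF. Gpd1, the cytosolic glycerol phosphate dehydrogenase, had 0.476 and 1.04 FPKM in SC, 0.493 to 2.08 FPKM in EC and 72.4 to 77.7 FPKM in SMF, and its mitochondrial partner Gpd2 had 1.53 and 1.66 FPKM in SC, 3.15 to 3.72 FPKM in EC and 19.4 to 23.4 FPKM in SMF. Pnpla2, the lipase that begins triglyceride breakdown, was higher in EC than in SMF by 0.70 (adjusted p = 0.00287), a sign that turned to -0.11 under median-of-ratios and -0.01 under upper-quartile scaling. In SC it was lower than in EC by -1.26 (adjusted p = 0.000619).

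Genes of cell volume control, ion transporters and channels whose flux water follows, had 10 of 11 tested. In SC 0 were higher and 6 lower than in EC (0 higher also at an unadjusted p under 0.05) and 7 higher and 1 lower than in SMF, and in EC 9 were higher and 0 lower than in SMF (0 lower also at an unadjusted p under 0.05). For all genes 16.4% were lower in SC than in EC, 56.5% higher in SC than in SMF and 55.5% higher in EC than in SMF. The median log2 difference of EC minus SMF was 1.73, against 0.85 for all genes, and under the other scalings 8 were higher and 1 lower. Those scalings left 3 to 8 genes lower in SC than in EC and 4 to 5 higher in SC than in SMF. Lrrc8c, a subunit of the volume-regulated anion channel, had 0.719 and 0.777 FPKM in SC, 28.6, 31.9 and 31.4 FPKM in EC, and 0.430 to 0.515 FPKM in SMF. Lrrc8a, the obligatory subunit, had 9.21 and 10.3 FPKM in SC, 41.3 to 52.9 FPKM in EC and 1.11 to 1.61 FPKM in SMF. Slc12a7, a potassium chloride cotransporter, had 1.28 and 2.37 FPKM in SC, 20.4 to 33.6 FPKM in EC and 0.0844 to 0.163 FPKM in SMF. Wnk1, a kinase upstream of these cotransporters, was higher in EC than in SMF by 1.48 (adjusted p = 4.61e-05), and in SC by 0.84 (adjusted p = 0.00205), where the sign turned to -0.16 and -0.13 under median-of-ratios scaling and after leaving the 50 most abundant genes out of the scaling. Of 4 Rh gas channel genes, Rhcg alone was listed and reached at most 0.165 FPKM.

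**Figure D4:**
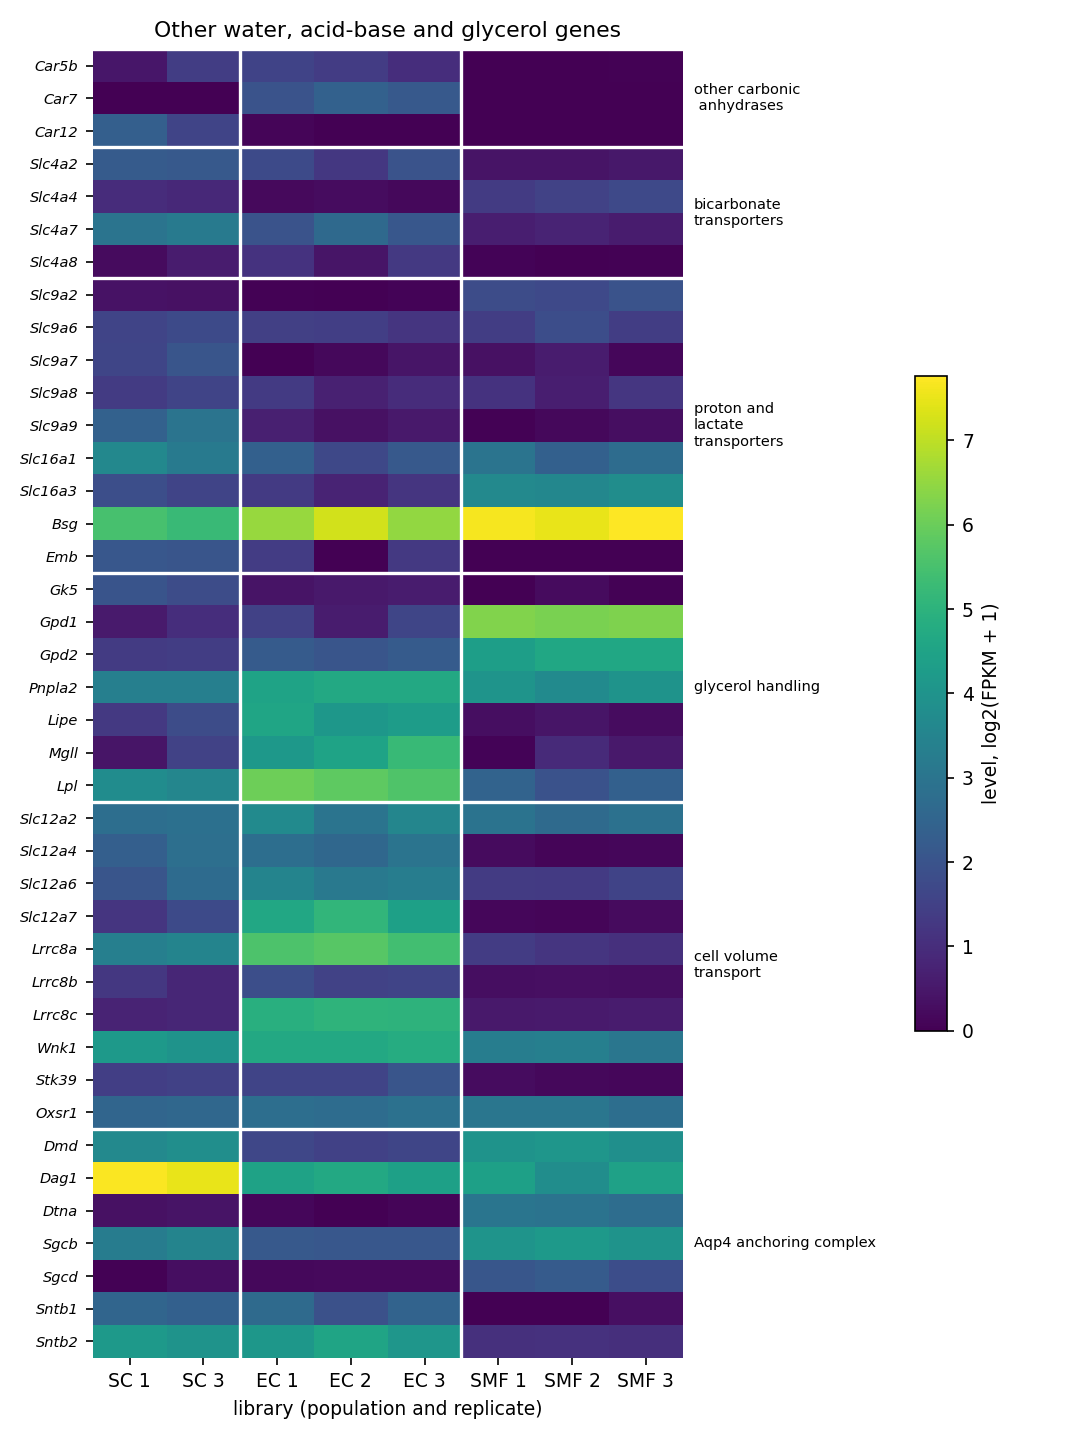
Levels of other tested water, acid-base and glycerol genes in each library, with colour giving log2(FPKM + 1) and libraries in columns. Lrrc8c and Slc12a7 were high in the 3 EC libraries, Slc16a3 and Gpd1 in the 3 SMF libraries, and Dag1 in both SC libraries.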

How the data were processed

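RNA of 8 libraries was made with a stranded kit from 10 ng of RNA, using random primers and removal of ribosomal sequences, and read as pairs of 50 bp, per the labels' protocols. Per the submitters' processing notes, FastQC, Trimmomatic, HISAT2, StringTie and bedtools were used with mm10; the sources used here give neither versions nor the use of strand. The authors deposited FPKM and coverage signal of genes and transcripts, TPM of loci, and a specificity score, per the file headers. FPKM as deposited was tested with limma 3.58.1 (R 4.3.3) on log2(FPKM + 1) with its variance trend, over all 8 libraries with a mean for each group, two-sided, for genes with at least 1 FPKM in at least 2 libraries. A gene was called when its p, adjusted by Benjamini-Hochberg for 16700 genes, was under 0.05, and every adjusted p-value printed is that of limma. Fold changes on this scale understate those of low genes. The calculation was tested on simulated data. The depth was read from coverage and corresponds to 278 to 581 Mb of aligned bases a library; no interval on counts is given. Transcripts were described and not tested, and since the transcript table is incomplete, coordinates and read pair equivalents cover the listed transcripts. The 10 genes and all lists were chosen with earlier results of these data known. All 10 are named; of each further list, up to 4 genes called in at least 1 comparison with the highest mean, any tested aquaporin or carbonic anhydrase, the 2 highest genes of a marker list, and the 2 genes most like each tested gene; a few genes that this rule names are not reported here, though counts of their lists include them. Summed levels of the remaining marker lists were 217.5 to 273 FPKM in SC, 226 to 698 FPKM in EC and 28.8 to 29.9 FPKM in SMF for pericytes and smooth muscle, 38.3 to 43.1, 13.4 to 123 and 1.23 to 3.73 FPKM in that order for leukocytes, and 35.9 to 40.4, 11.9 to 14.1 and 4.22 to 6.55 FPKM for Schwann cells. Alternatives were other pseudocounts, filters, scalings, the TPM table, fits without other groups, trend or with a replicate block, a test against a log2 difference of 1, and leaving out each library. Protein sequences were not analysed here.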

Additional observations from a re-analysis of the deposited data

How the results depend on the processing

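Over 20 alternatives, the calls of Aqp1, Aqp7, Car4 and Car8 between SC and EC and between EC and SMF, those of Aqp4 against SMF and that of Car3 between EC and SMF were kept in every one; for Aqp1, SC minus EC ran from -7.04 to -6.27. Over the 9 tested genes, 467 values kept direction and side of the threshold, 21 lost the call, 8 gained one and 11 turned sign. The count of genes higher in SC than in EC, 0, became 1 (Car3) with a filter at 5 FPKM, upper-quartile scaling and the TPM table, and ran from 0 to 1 when a library was left out; the cause was not tested. The count higher in SC than in SMF, 1, was 0 with that filter, under the 3 scalings and in the TPM table, where Car13 no longer entered the test, and under the test against a log2 difference of 1, and ran from 0 to 1 without single libraries. The count lower in SC than in SMF, 3, was 1 against a log2 difference of 1 and ran from 1 to 3 without single libraries, with 1 when SC replicate 1 was left out; the cause was not tested. Signs turned as follows, and the cause was not tested. Under median-of-ratios scaling, then with the 50 most abundant genes left out of the scaling, SC minus SMF became -0.51 and -0.48 for Aqp1, -0.0377 and -0.0284 for Car8, -0.24 and -0.21 for Slc16a1, -0.16 and -0.13 for Wnk1, and -0.17 and -0.15 for Lrrc8c. EC minus SMF became -0.37 and -0.29 for Car2 and -0.52 and -0.37 for Dag1, and under the first of these scalings -0.11 for Pnpla2. Under upper-quartile scaling it became -0.27 for Car2, -0.0103 for Pnpla2 and -0.42 for Dag1, and SC minus EC became 0.12 for Sntb2. In the TPM table SC minus SMF was 0.12 for Dmd. Leaving out a library, Car2 ran from -0.24 to 0.25 for EC minus SMF (-0.09 without SMF replicate 3), and for SC minus EC Car5b ran from -0.85 to 0.10 and Sntb2 from -0.24 to 0.0024.

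The labels do not say that replicate numbers pair libraries, so the numbers were not taken as pairs. Correlations of deviations from the group mean ran from -0.06 to 0.09 between same-numbered libraries of different populations. Between differently numbered libraries they ran from -0.09 to 0.06. The deviations of SC replicates 1 and 3 mirror each other, so the correlations with SC are not independent and cannot settle pairing. With a replicate block, 0 genes were higher and 4 lower in SC than in EC, 1 higher and 2 lower in SC than in SMF, and 5 higher and 2 lower in EC than in SMF, where the lost calls were those of Car14 (adjusted p = 0.0927 and 0.0596); SC minus SMF turned to -0.0209 for both Aqp7 and Car8. Depth limits Aqp11, Car2, Car13 and Car14, whose values rest on few read pairs.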
